A study of Arabidopsis thaliana with 48 samples.

Results

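In apices of Arabidopsis seedlings, 118 of 31004 measured genes (0.381%) had transcript levels that were lower than in the wild type on average over both lines without functional SVP. These genes were chosen by their values. In the apex, the difference from the wild type was taken in the *svp-41* single mutant and in the double mutant with *flc-3*, each under short days (SDs) and under long days (LDs), and a gene was kept where the mean of the 4 differences was −0.8 or lower on the log2 scale. That scale is used throughout, so a difference of −1 is a halving of the hybridisation signal. For the kept genes the mean ran from −3.36 to −0.8 with a median of −1.03. Because the choice rests on the 18 apex arrays of wild type and of both lines without SVP, their differences are given below as a description, and tests are given only for the leaf arrays, for the apices of the *flc-3* single mutant and for differences that the choice averaged over.

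The 4 lines compared were all in the Columbia cultivar with an introgressed functional *FRIGIDA* (*FRI*) allele. The wild type was *SVP FLC FRI*, the single mutants were *svp-41 FLC FRI* (here *svp-41*) and, with a functional *SVP* gene, *flc-3 FRI* (here *flc-3*), and the double mutant carried both mutant alleles. Each genotype was represented by 1 line, so an allele and the segment linked to it cannot be told apart. Seedlings spent 2 weeks in SDs, or 2 weeks in SDs and then 2 days in LDs. Leaves and apices were collected at Zeitgeber 8 from 3 biological replicates, which gave 16 groups and 48 tiling arrays. The labels of the SD plants also mention an additional 2 days, so whether both day lengths were harvested at one age could not be settled.

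SVP and FLC are MADS-domain transcription factors that bind to one another and delay flowering. In leaves they repress *FT* and at the shoot apex *SOC1*, and *FRI* keeps *FLC* transcription high. Both are known mainly as repressors of transcription. A whole apex contains meristem, young leaf primordia and stem tissue, so in these samples fewer cells of one type and less RNA per cell cannot be told apart.

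The *SVP* transcript itself was among the 118 genes. In SD apices it measured 7.51 to 7.67 in the wild type and 7.75 to 7.89 in *flc-3*, but 6.66 to 6.86 in *svp-41* and 6.54 to 6.81 in the double mutant. None of the 12 apex arrays without functional *SVP* reached the lowest of the 12 with it (6.86 against 7.41). The array reports transcript, and the *svp-41* lines retained a measurable *SVP* signal. *FLC* entered through its own mutation: it measured 9.12 to 9.55 in wild-type apices and 9.4 to 9.8 in *svp-41*, against 6.47 to 7.05 in *flc-3* and 5.95 to 6.71 in the double mutant. In *svp-41* alone its difference from wild type was +0.31 in SDs and +0.21 in LDs, so *FLC* is no gene with a lower level upon loss of *SVP*.

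Of the 118 genes, 109 were below wild type in all 4 apex differences, 49 were at −0.8 or lower in all 4, and 27 were below −1 in all 4. The medians were −1.05 in *svp-41* and −1.3 in the double mutant in SDs, and −0.9 and −1.16 in LDs. Below −1 were 66 and 81 of the genes in SDs, where 0.274% and 0.426% of all genes were that low, and 49 and 80 in LDs, where the shares of all genes were 0.206% and 0.374%. The mean over both lines was at −0.8 or lower in both day lengths for 73 genes, only in SDs for 27 and only in LDs for 18. At the other side, 59 genes had a mean of 0.8 or higher. The last genes inside the limit were *CYP86A1* (−0.8093), *BGL2* (−0.8055) and AT1G63055 (−0.8042), and the first outside it were AT5G37690 (−0.7998), AT3G58550 (−0.7975) and AT4G36430 (−0.7974), so the edge of the set is not a gap in the values. Leaving out 1 array at a time gave 113 to 135 genes, of which 108 to 117 were among the 118.

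The *flc-3* single mutant was not used in the choice, but it is set against the same wild-type arrays and its apex differences are therefore listed without a test. Their median over the 118 genes was −0.49 in SDs and −0.32 in LDs, where the median of all genes was 0.008 and −0.005. At −0.8 or lower were 35 of the genes in SDs (0.345% of all genes) and 14 in LDs (0.158%), 9 of them in both, while 29 lay within 0.3 of the wild type in both. Among the genes close to wild type in *flc-3* were *PIN1AT* (0.04 and −0.05 in SDs and LDs) and AT1G55675 (0.11 and 0.03), and among those far below it were *XTH31* (−1.33 and −1.13), a cell wall xyloglucan enzyme, and *SPX1* (−1.22 and −1.32), a phosphate-sensing protein.

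The tissue labels were checked against marker genes. *STM*, the homeobox gene that maintains the shoot meristem, had group means of 6.92 to 7.72 in apices and 4.33 to 4.85 in leaves, and the mean of 12 shoot apex markers was 4.70 to 4.99 on the apex arrays and 3.86 to 4.07 on the leaf arrays. The stem cell genes *WUS* and *CLV3*, which are active in very few cells, stayed at 2.75 to 3.38. Because many genes below are best known from roots, 19 root markers were followed too. Their mean was 3.90 to 4.06 on apex arrays with *SVP* and 3.83 to 3.97 on those without, so the ranges overlapped, and none of the 19 was among the 118 genes. Their mean apex difference was below 0 for 15 of the 19, with a median of −0.05 and a lowest value of −0.28. Most stood near the bottom of the scale, whereas *PYK10*, a β-glucosidase of roots and hypocotyls, had apex group means of 10.76 to 11.6 with *SVP* and 11.14 to 11.46 without. Summed on the linear scale, where *PYK10* weighs most, the root markers reached 2750 to 3360 in wild-type SD apices, 2460 to 3130 in *svp-41*, 1540 to 2310 in *flc-3* and 2390 to 2600 in the double mutant. In LDs the sums were 3140 to 3780, 2650 to 3430, 2690 to 3560 and 2250 to 2840 in the same order. The double mutant thus lay below the wild type in both day lengths and *flc-3* in SDs, while *svp-41* overlapped the wild type. The part of root or hypocotyl tissue in the lower levels of the 118 genes was not tested.

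Replicates differed in the level of the whole set. Replicate 2 of *flc-3* apices in SDs was the highest of its 3 for 68 of the 118 genes (57.6%, against 30.9% of all genes), and replicate 1 of *svp-41* apices in SDs for 69 (58.5% against 36.6%). The same held for replicate 1 of *svp-41* in LDs (51.7% against 33.0%), replicate 2 of the double mutant in LDs (52.5% against 34.0%) and replicate 2 of the wild type in SDs (52.5% against 31.0%). The genes thus moved together between plants of one genotype, and their number is not a number of independent observations. What sets these arrays apart was not tested.

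**Figure D1:**
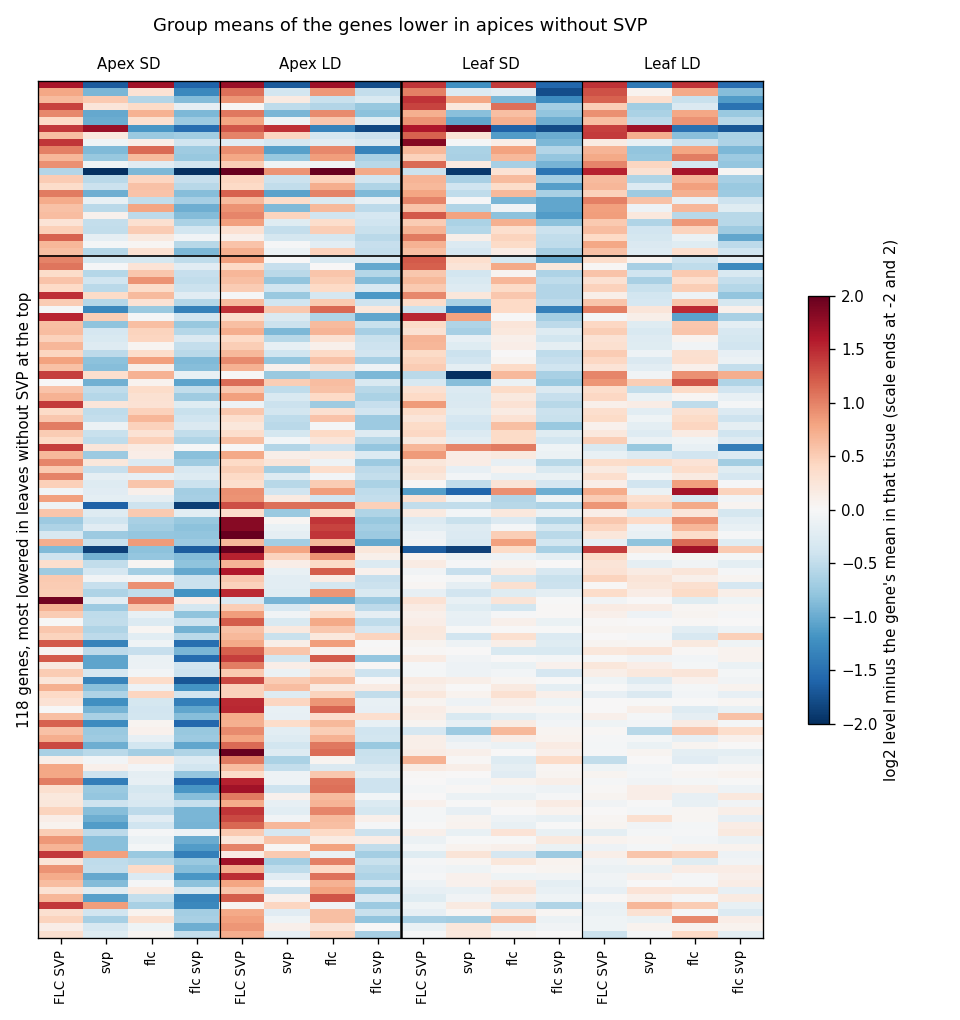
Group means of the 118 genes (lines of the map) in the 16 groups (columns), each as the log2 difference from the gene's own mean over the 8 groups of that tissue. Genes are ordered by their mean leaf change upon loss of SVP, and the line marks the lower end of the 24 genes that were lower in leaves. The apex columns of *svp-41* and the double mutant lie mostly below those of the wild type because the genes were chosen for it, whereas in leaves the columns differ in the upper part and fade toward no difference below.

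The leaf arrays allowed the question whether these genes are also lower without SVP outside the apex. The same mean of 4 differences was tested in leaves with limma over all genes, and a gene was called where the change exceeded 2-fold at an adjusted p under 0.01. The double mutant in this mean also lacks *FLC*, so a call is not an effect of *SVP* alone. Of the 118 genes, 24 (20.3%) were lower in leaves and 0 were higher, against 0.181% of all genes lower and 0.561% higher. *SVP* and *FLC* themselves are among the 24, which leaves 22. Without the fold limit 50 genes were called lower (4.45% of all genes). The sign was negative for 97 of the 118 genes (82.2%, against 50.3% of all genes), with a median of −0.35 against 0.0, and 47 genes lay within 0.2 of no change. A lower level could be seen in leaves only where the wild-type leaf expressed the gene. In wild-type leaves 36 of the 118 genes lay below the typical array median of 4.33, and none of these 36 was called.

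The largest difference in both tissues belonged to *PIN1AT* (AT2G18040), a peptidyl-prolyl cis/trans isomerase reported to act on flowering MADS-domain proteins. In apices it measured 10.22 to 10.43 (median 10.29) on the 12 arrays with *SVP* and 6.65 to 7.16 (median 6.93) on the 12 without. In leaves the ranges were 9.6 to 9.94 (median 9.77) and 6.62 to 7.15 (median 6.93). Arrays with and without *SVP* were thus separated by a wide margin in every tissue and day length, and *flc-3* lay among the wild type. The leaf change was −2.87 ± 0.06 (SE, adjusted p = 1.04e-29), a 7.31-fold lower signal.

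Another 3 genes had the same pattern of a high and a low level. AT3G51000, annotated as an α/β-hydrolase, measured 6.22 to 7.13 in apices with *SVP* and 4.58 to 5.01 without, and in leaves 6.74 to 7.33 and 5.43 to 5.9. *HOL3* (AT2G43940), a homologue of the methyl halide transferase HOL1, measured 7.11 to 7.7 and 5.45 to 5.94 in apices and 6.21 to 6.81 and 4.64 to 5.29 in leaves. In AT1G55675 the corresponding ranges were 7.07 to 7.59 and 4.84 to 5.89 in apices, and 7.66 to 8.2 and 6.18 to 6.68 in leaves. For none of these did any array without *SVP* overlap one with it. Their leaf changes were −1.28 ± 0.08 (adjusted p = 2.25e-14), −1.57 ± 0.09 (adjusted p = 7.91e-16) and −1.39 ± 0.09 (adjusted p = 2.05e-14) respectively.

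AT2G31440 showed how tight such a difference could be. In leaves it measured 8.05 to 8.26 on the arrays with *SVP* and 6.67 to 7.1 without, and in apices 8.37 to 8.6 and 7.39 to 7.68. The leaf change of −1.3 ± 0.05 (adjusted p = 4.24e-21) was small beside that of *PIN1AT*, but the spread within each class of lines was smaller still.

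*MIR850* (AT4G13493), a microRNA gene, behaved less uniformly. In SD leaves it measured 7.88, 8.31 and 8.48 in the wild type, 7.47, 6.6 and 6.71 in *svp-41*, 7.27, 6.83 and 6.87 in *flc-3* and 5.12, 5.7 and 5.49 in the double mutant. Both single mutants thus stood below the wild type and overlapped one another, and the double mutant was lowest. Its leaf change was −1.85 ± 0.19 (adjusted p = 5.34e-09), and in SD leaves *flc-3* alone stood at −1.23 ± 0.32 from the wild type (adjusted p = 0.00857), a call that was lost without the replicate block. The non-coding RNA AT4G13495 (leaf change −1.01) overlaps *MIR850* in the annotation, so their signals may not be separable on the array.

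The other genes called in leaves belonged to several functions. *SPX1* (−1.62 ± 0.14, adjusted p = 3.39e-11) and the acid phosphatase *PAP17* (−1.19) are known from phosphate starvation. *SPX1* was also lower in *flc-3* leaves, where *SVP* is functional. *DOT1* (−1.53 ± 0.13, adjusted p = 1.97e-11) and *GRP3S* (−1.17) encode glycine-rich proteins, *FUT13* (−1.17) a fucosyltransferase, and *CDF3* (−1.22) and *ERF15* (−1.13) transcription factors of the DOF and ERF families. *WRKY54* (−1.58 ± 0.17, adjusted p = 1.32e-08), a WRKY factor of the salicylic acid response, and *PR4* (−1.31 ± 0.23, adjusted p = 7.81e-05), a hevein-like defence protein, were called as well. In AT1G71000 (−1.42 ± 0.25, adjusted p = 7.33e-05), AT3G44450 (−1.43), AT5G66250 (−1.34), AT3G52740 (−1.33), AT4G13575 (−1.2) and AT2G29170 (−1.16) the change was of similar size. The number of called genes stayed between 24 and 28 when any 1 array was left out. Of 8 flower markers, only *SEP3*, a floral MADS-box gene, was called in the leaf mean, higher by 2.52 ± 0.13 (adjusted p = 1.3e-16). The median change of the 8 was 0.1. Their mean level, *SEP3* included, was 3.08 to 3.27 on leaf arrays with *SVP* and 3.47 to 3.76 on those without. The linear sums, also with *SEP3*, were 78.2 to 99.9 and 120.0 to 203.0. In apices the flower marker means overlapped (2.85 to 3.1 and 2.9 to 3.13). Their part in the leaf result was not tested.

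**Figure D2:**
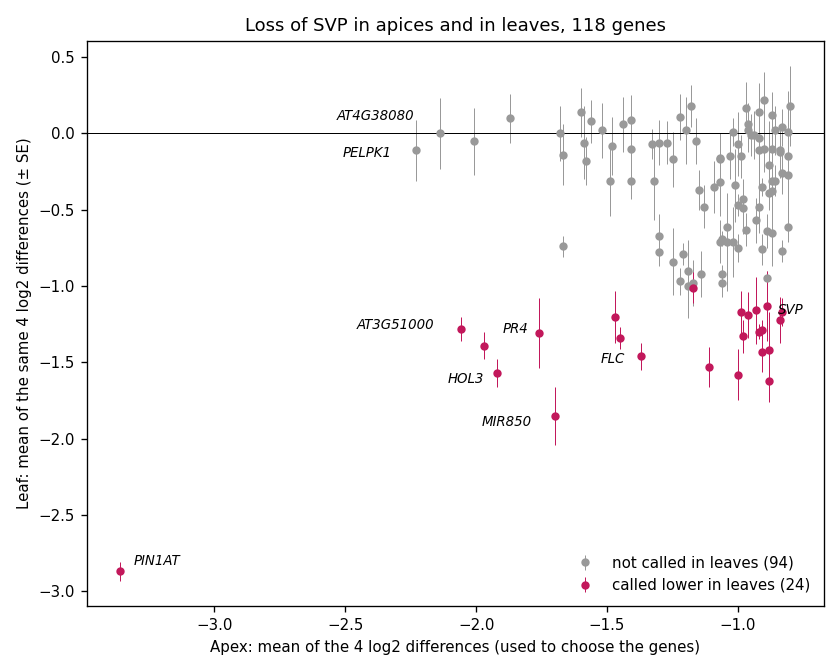
Mean of the 4 apex differences (horizontal, log2, used to choose the genes) against the mean of the 4 leaf differences (vertical, log2, error bars ± SE from the fit) for the 118 genes. The 24 genes called in leaves and the 94 others are drawn in separate colours. *PIN1AT* lies at −3.36 and −2.87, while *PELPK1*, with an apex value of −2.23, lies close to 0 in leaves.

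Taken contrast by contrast, *svp-41* leaves had 14 of the 118 genes lower in SDs (0.123% of all genes) and 9 in LDs (0.0677%). The double mutant had 31 lower in SDs (0.545%) and 22 in LDs (0.261%), and 0 of the genes were higher in any of these 4 contrasts, which share their wild-type arrays. Of all genes, 0.793% and 0.116% were higher in *svp-41* leaves in SDs and LDs, and 1.2% and 0.593% in those of the double mutant. The 9 genes called in all 4 were *PIN1AT*, AT3G51000, AT1G55675, *HOL3*, AT5G66250, *DOT1*, *GRP3S*, AT2G31440 and *FUT13*. *SVP* and *CDF3* were called in 3, another 11 genes in 2, 12 in 1 and 84 in 0. In *flc-3* leaves 10 genes were lower and 3 higher in SDs (0.306% and 1.48% of all genes), and 6 lower and 2 higher in LDs (0.1% and 0.729%). Without replicate 3 of *flc-3* in SDs, 6 were lower, and without replicate 1, 1 was higher. Here *SPX1* fell by 2.35 ± 0.22 in SDs (adjusted p = 1.17e-09), a 5.09-fold lower signal.

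All 12 leaf arrays without *SVP* lay below all 12 with it for 17 of the 118 genes, where 0.216% of all genes did so. In apices, where the genes were chosen, this was true of 31 genes (0.303% of all genes), and the 17 were among these 31. They were *SVP*, the genes *PIN1AT*, AT3G51000, AT1G55675, *HOL3* and AT2G31440 described above, *DOT1*, AT5G66250 and *FUT13*, and a further 8 whose mean leaf change stayed below 2-fold: *STE14A*, which encodes a prenylcysteine methyltransferase, *HDA14*, a histone deacetylase, *APP1*, an aminopeptidase, and AT2G41650, AT1G12400, AT3G63510, AT5G25570 and AT1G73650.

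AT2G41650 had the highest signal of these 8. It measured 9.98 to 10.93 in apices with *SVP* and 8.95 to 9.56 without, and 8.48 to 9.28 and 7.6 to 8.32 in leaves. Its leaf change was −0.97 ± 0.09 (adjusted p = 3.91e-10). *HDA14* was higher in leaves than in apices, with 8.13 to 8.42 and 7.64 to 8.09 in leaves against 6.48 to 6.97 and 5.35 to 6.07 in apices, and its leaf change was −0.35 ± 0.06 (adjusted p = 2.14e-05). AT5G66250 measured 5.33 to 5.85 and 3.93 to 4.29 in apices and 5.21 to 5.95 and 3.92 to 4.3 in leaves, almost the same 2 levels in both tissues. The size of the step thus varied among genes that shared the separation of arrays.

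For another 14 genes the arrays were separated in apices and overlapped in leaves. AT4G31310 measured 7.2 to 7.76 with *SVP* and 5.74 to 6.41 without in apices, and 8.13 to 8.79 and 7.55 to 8.28 in leaves, where its change was −0.74 ± 0.07 (adjusted p = 1.44e-09). *ARPN*, which encodes the secreted copper protein plantacyanin, measured 9.04 to 10.02 and 7.82 to 8.93 in apices and 5.25 to 6.07 and 4.6 to 5.56 in leaves. AT1G17860 measured 6.25 to 6.89 and 4.57 to 5.68 in apices, and 5.81 to 7.56 and 5.17 to 6.21 in leaves, where its change did not pass the test (−0.31 ± 0.12, adjusted p = 0.0805). In each of the 3, leaf ranges touched while the leaf values without *SVP* reached lower.

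**Figure D3:**
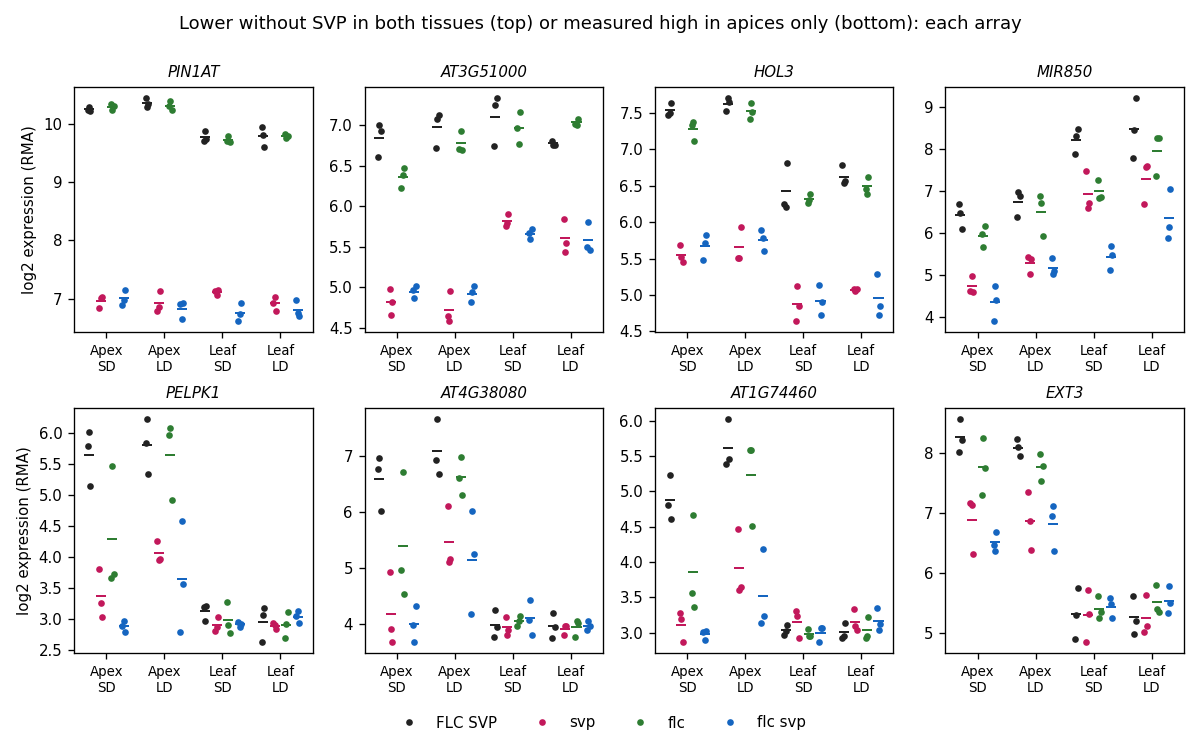
Log2 signal on each of the 48 arrays (points) by genotype, tissue and day length, with the group mean as a bar, for 8 genes. In the upper panels (*PIN1AT*, AT3G51000, *HOL3*, *MIR850*) the lines without *SVP* are low in leaves and apices. For *MIR850* in SD leaves, *flc-3* is also low and overlaps *svp-41*. In the lower panels (*PELPK1*, AT4G38080, AT1G74460, *EXT3*) the lines without *SVP* are low in apices while all genotypes overlap in leaves.

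A second kind of gene was low without *SVP* in the apex and at one level in all leaves. *PELPK1* (AT5G09530), a proline-rich cell wall protein, was the clearest. In SD apices it measured 5.78, 6.02 and 5.14 in the wild type, 3.81, 3.26 and 3.03 in *svp-41*, 3.66, 5.47 and 3.73 in *flc-3* and 2.89, 2.97 and 2.79 in the double mutant. In LD apices the values were 5.83, 6.22 and 5.34, then 4.25, 3.95 and 3.97, then 5.96, 6.07 and 4.92, and 2.79, 4.58 and 3.57 in the same order. The wild type stood above both lines without *SVP* in each day length, whereas the *flc-3* replicates were spread in SDs and among the wild type in LDs. All 24 leaf arrays lay between 2.63 and 3.28, a level at which no lowering could have been detected.

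AT4G38080, a hydroxyproline-rich glycoprotein, repeated this order. It measured 6.76, 6.96 and 6.01 in wild-type SD apices, 4.93, 3.91 and 3.68 in *svp-41*, 4.96, 6.7 and 4.53 in *flc-3* and 3.98, 3.68 and 4.32 in the double mutant. Replicate 2 of *flc-3*, high here as for *PELPK1*, was the highest of its 3 arrays for most of the 118 genes. AT1G74460, a GDSL-type esterase/lipase, measured 4.81, 5.23 and 4.61 in the wild type, 3.28, 3.19 and 2.87 in *svp-41*, 3.56, 4.67 and 3.36 in *flc-3* and 3.01, 2.9 and 3.02 in the double mutant. The leaf arrays stood at 3.75 to 4.43 for the former and at 2.87 to 3.35 for the latter.

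*EXT3* (AT1G21310), an extensin needed for the cross-linked wall scaffold, was expressed in both tissues. Its apex values were 7.3 to 8.57 (median 8.01) with *SVP* and 6.33 to 7.35 (median 6.78) without, and its leaf values 4.91 to 5.81 (median 5.36) and 4.86 to 5.79 (median 5.42). The leaf ranges coincided at a level above the array median, so its leaf value was not limited by the lower end of the scale. The related *EXT4* likewise measured 5.06 to 6.25 and 5.07 to 6.22 in leaves. A list of 12 extensins and proline-rich wall proteins held 6 of the 118 genes, and its median apex difference was −0.84, against −0.001 for all genes. The list was written with earlier results of these data known, so this count is a description.

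In *flc-3* plants, whose arrays were not used to choose the genes, apex and leaf were compared by a test. The choice itself favoured genes with an apex level high enough to fall and asked nothing of leaves. A surplus of genes that are higher in the apex is therefore partly set by the choice. In SDs 30 of the 118 genes were higher in the apex and 17 lower (4.56% and 5.28% of all genes), and in LDs 48 were higher and 16 lower (5.13% and 5.53%), with 26 higher and 15 lower in both. All 6 wall protein genes were higher in the LD apex, among them *PELPK1* by 2.74 ± 0.33 (adjusted p = 1.03e-08), AT4G38080 by 2.68 ± 0.38 (adjusted p = 1.93e-07) and *EXT3* by 2.25 ± 0.26 (adjusted p = 2.67e-09). The strongest preference for the apex belonged to the lipid transfer protein gene AT5G01870, by 5.37 ± 0.24 in SDs and 5.6 ± 0.24 in LDs (with adjusted p-values of 7.11e-20 and 1.8e-20), a 48.3-fold difference in LDs. It was followed by AT4G11190 (*DIR13*, a dirigent protein gene; 4.57 and 5.08) and *PRB1* (a basic PR1-type protein; 4.31 and 4.78). The opposite preference was found in *WRKY54*, with apex minus leaf at −2.47 ± 0.28 in SDs and −2.04 ± 0.28 in LDs, and in the MYB-related *RL4* (−2.85 and −2.62).

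Several genes of wall-bound lipids and of lignin-type polymers were among the 118 genes. *CYP86A1* and *RWP1* (ASFT) make suberin monomers, and AT2G48130 (LTPG15) is a lipid transfer protein linked to suberin. They were the only members on a list of 23 suberin and Casparian strip genes, whose median apex difference was −0.08. *CYP86A1* was weak: its SD apex values were 3.75, 4.43 and 3.34 in the wild type and 3.43, 3.08 and 3.1 in *svp-41*, and these ranges overlapped. In LD apices of *flc-3* it exceeded leaves by 1.28 ± 0.23 (adjusted p = 1.83e-05), but in SDs the difference was 0.08 ± 0.23 (adjusted p = 0.836). Of the 23 list genes, 0 were higher in the *flc-3* apex than in leaves in SDs and 2 in LDs (4.56% and 5.13% of all genes). None of 20 lignin genes was among the 118. Of 71 measured class III peroxidases, enzymes that couple phenolics in the wall, 6 were members, and of 25 dirigent protein genes 2 were, AT4G11190 and AT2G21100 (*DIR23*). The list medians were −0.08 for the peroxidases and 0.02 for the lignin genes, so these lists as a whole stood near no change. The GPI-anchored lipid transfer proteins AT3G22600 and AT3G22620 (apex means −1.59 and −1.67), the Casparian strip-like proteins AT4G20390 and AT5G44550 (−1.6 and −1.58) and the esterase/lipase AT2G23540 (−1.68) were further genes of this kind.

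Day length moved part of the set. Plants in LDs had more transcript of 17 of the 118 genes in *flc-3* apices (0.152% of all genes) and less of 1 (0.0903%). In the wild type 15 rose and 6 fell (0.171% and 0.126%), in *svp-41* 12 rose and 1 fell (0.142% and 0.113%), and in the double mutant 6 rose and 0 fell (0.0645% and 0.0419%). Leaving out 1 array moved the rise in *flc-3* to between 10 and 24, the lowest without its SD replicate 1, and that in the double mutant to between 2 and 6, with 2 upon loss of SD replicate 1 or 3 or LD replicate 2 or 3. The 6 that fell in the wild type became 3 without SD replicate 1 or 2 and 2 without LD replicate 3. *PR4*, *GSTF2* (a glutathione transferase) and the peroxidase gene AT4G11290 (*PER39*) rose in all 4 genotypes, the lectin-like AT3G16530 and *GLL22* in 3, 13 genes in 2 and 6 in 1. No test compared these counts between genotypes.

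*PR4* gave the largest rise of the 118 genes in the 3 mutant lines, and in the wild type it came after AT3G16530 (3.15 ± 0.42). In SD apices it measured 7.88, 9.31 and 8.1 in the wild type, 6.39, 6.89 and 6.51 in *svp-41*, 7.8, 9.38 and 7.17 in *flc-3* and 6.13, 6.77 and 6.76 in the double mutant. In LDs the values were 11.38, 11.58 and 11.56, then 10.27, 9.54 and 9.94, then 11.38, 11.3 and 11.06, and 9.27, 9.9 and 10.13. Lines without *SVP* remained below the others in both day lengths, and every LD array of a genotype exceeded its SD arrays. The rise was 3.08 in the wild type, 3.32 in *svp-41*, 3.13 in *flc-3* and 3.21 in the double mutant, each with an SE of 0.38 (adjusted p from 1.26e-06 to 6.09e-06).

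In leaves, day length called fewer of the 118 genes. Of the wild type, 4 rose and 1 fell in LDs (0.119% and 0.145% of all genes), of *svp-41* 3 and 1 (0.0806% and 0.297%), of *flc-3* 1 and 3 (0.306% and 0.532%) and of the double mutant 1 and 2 (0.103% and 0.213%). *PR4* rose by 1.97 ± 0.38 in the wild type (adjusted p = 0.00158) and by 2.23 ± 0.38 in *svp-41* (adjusted p = 3.89e-04). AT3G16530 rose in the same lines, by 3.08 ± 0.42 and 2.05 ± 0.42. *GSTF2* rose by 1.45 ± 0.33 in the wild type, 1.68 ± 0.33 in *svp-41* and 1.46 ± 0.33 in the double mutant, and its value in *flc-3* was 1.09 ± 0.33 (adjusted p = 0.0307). *NIMIN1* fell by 1.73 ± 0.28 in *svp-41*, 1.2 ± 0.28 in *flc-3* and 1.31 ± 0.28 in the double mutant, and its wild-type value of −0.97 ± 0.28 (adjusted p = 0.0431) missed the limits. These counts are small, and leaving out 1 array moved most of them.

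**Figure D4:**
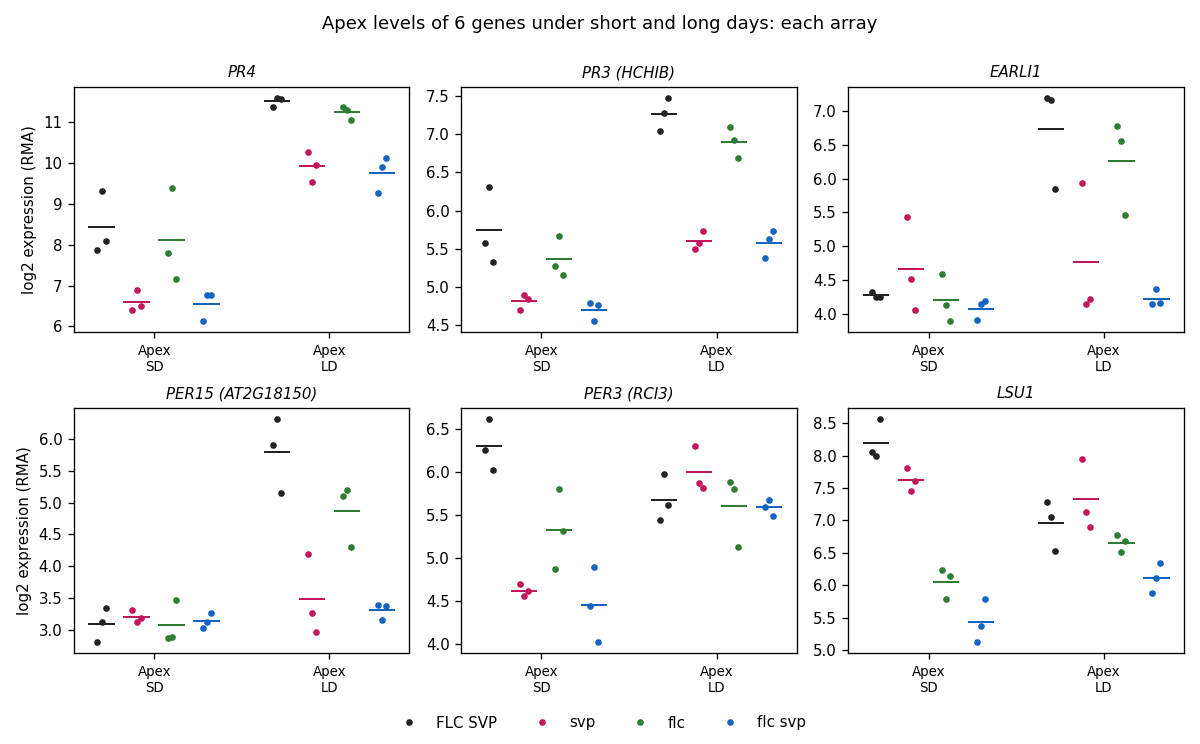
Log2 signal on each apex array (points) in SDs and LDs for the 4 genotypes, with group means as bars, for *PR4*, *HCHIB*, *EARLI1*, *PER15*, *RCI3* and *LSU1*. *PR4* is higher in LDs in every genotype, *PER15* stands at 2.81 to 3.47 in SDs and is higher in LDs on all arrays of the wild type and *flc-3*, and *RCI3* is higher in LDs in the lines without *SVP*.

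*HCHIB* (PR3), a basic chitinase, rose in LDs by 1.52 ± 0.16 in the wild type (adjusted p = 1.19e-07) and by 1.54 ± 0.16 in *flc-3* (adjusted p = 1.73e-07). *BGL2* (PR2), a β-1,3-glucanase, rose by 2.32 ± 0.32 and 1.89 ± 0.32 in these lines, and *AZI1* and *EARLI1*, neighbouring lipid transfer-like genes of the systemic defence response, by 2.55 ± 0.39 and 2.45 ± 0.36 in the wild type. *EARLI1* measured 4.26 to 4.33 in wild-type SD apices and 5.84 to 7.18 in LDs, whereas the double mutant stayed at 3.91 to 4.19 and 4.15 to 4.38. In SD apices of *svp-41* the mean of *AZI1* and *EARLI1* was 5.29, 4.66 and 4.43, against 4.33, 4.38 and 4.57 in the wild type. In LDs it was 6.24, 4.52 and 4.4 against 7.31, 7.34 and 6.15. The single mutant thus overlapped the wild type in both day lengths and was not lower in SDs. The difference of the *svp-41* effect between day lengths did not pass the test for *EARLI1* (−2.35 ± 0.51, adjusted p = 0.216), *AZI1* (−2.12 ± 0.55, adjusted p = 1) or *BGL2* (−2.12 ± 0.45, adjusted p = 0.216). Of 27 salicylic acid and defence genes on a list, 6 were members and 2 of the 27, *WRKY54* and *PR4*, were lower in leaves without *SVP*, while 3 that are not members were higher. *NIMIN1*, which binds the salicylic acid receptor protein NPR1, and *WRKY54* fell in LDs in wild-type apices, by 1.37 ± 0.28 and 1.31 ± 0.28 (adjusted p = 0.00316 and 0.00588), so the defence genes did not all move one way with day length.

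The difference from the wild type changed with day length in 2 genes in both lines without *SVP*, and in *LSU1* in the double mutant, which also lacks *FLC*. The peroxidase gene AT2G18150 (*PER15*) stood at 2.81 to 3.47 in SD apices of all 4 genotypes. In LDs it measured 5.9, 6.31 and 5.15 in the wild type, 4.19, 3.27 and 2.97 in *svp-41*, 5.1, 5.19 and 4.3 in *flc-3* and 3.39, 3.15 and 3.38 in the double mutant. The SD values lay near the bottom of the scale in every genotype, so a lower level could not have been seen there, and the gene entered the set through its LD values. The change differed between LDs and SDs by −2.42 ± 0.35 in *svp-41* (adjusted p = 7.36e-04) and by −2.53 ± 0.35 in the double mutant (adjusted p = 5.83e-04). With the SD level at the bottom and the gene chosen by its LD values, this test cannot tell whether the effect depends on day length. For the *svp-41* comparison 0.00323% of all genes were called in each direction, and for the double mutant 0.00323% lower and 0.00968% higher.

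The reverse was seen in *RCI3* (*PER3*), a peroxidase gene known from cold treatment. In SD apices it measured 6.26, 6.62 and 6.03 in the wild type, 4.69, 4.55 and 4.61 in *svp-41*, 4.87, 5.81 and 5.31 in *flc-3* and 4.44, 4.9 and 4.02 in the double mutant. In LDs the 12 arrays lay between 5.13 and 6.31 and the genotypes overlapped. The change differed by 2.0 ± 0.29 in *svp-41* (adjusted p = 7.36e-04) and by 1.76 ± 0.29 in the double mutant (adjusted p = 0.00477), and *RCI3* rose in LDs by 1.38 ± 0.2 and 1.14 ± 0.2 in these lines. In *LSU1* the difference was 1.93 ± 0.31 in the double mutant (adjusted p = 0.00477) and 0.94 ± 0.31 in *svp-41* (adjusted p = 1). When leaves and apices were fitted separately, none of these 5 differences passed the threshold. For the double mutant, 0 of the 2 higher calls were left without SD replicate 1, without LD replicate 2 or 3, or without wild-type LD replicate 3.

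Some members followed *FLC* more than *SVP*. *LSU1*, *LSU2* and *LSU3* respond to sulphur limitation and were all members. *LSU1* measured 8.05, 7.99 and 8.56 in wild-type SD apices, 7.81, 7.45 and 7.61 in *svp-41*, 6.23, 5.79 and 6.14 in *flc-3* and 5.13, 5.37 and 5.79 in the double mutant. The 2 lines with functional *FLC* were separated from the 2 lines without it. Between the double mutant and *svp-41*, which differ in *FLC*, *LSU1* fell by 2.19 ± 0.22 (adjusted p = 7.11e-08), *LSU3* by 2.12 ± 0.31 (adjusted p = 2.35e-04) and *SPX1* by 1.4 ± 0.22 (adjusted p = 9.56e-04) in SD apices. With *FLC* itself these were the 4 members called lower (0.0161% of all genes), and 0 were higher (0.0194%). In LD apices *FLC* was the only member called lower (0.00323%), and 0 were higher (0.0226%). Without replicate 3 of *svp-41* in LDs, 2 were lower. *LSU1* in LDs measured 7.29, 7.06 and 6.53 in the wild type and 5.88, 6.12 and 6.34 in the double mutant, a smaller distance than in SDs. In the wild type it fell in LDs by 1.24 ± 0.22 (adjusted p = 7.53e-04) and *LSU3* by 1.36 ± 0.31 (adjusted p = 0.00916). The sulphur list of 15 genes held these 3 members and had a median apex difference of −0.31.

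The anthocyanin pathway was represented by its activator *PAP1* (MYB75) and the decorating enzymes AT1G03495 (3AT2, an acyltransferase) and AT4G14090 (UGT75C1, a glucosyltransferase). *PAP1* measured 6.57, 7.12 and 6.63 in wild-type SD apices, 5.92, 5.56 and 5.72 in *svp-41*, 5.42, 5.11 and 5.09 in *flc-3* and 4.72, 4.84 and 4.95 in the double mutant. The 4 genotypes did not overlap and formed a descending order. AT1G03495 measured 6.0 to 6.21 in the wild type, 3.53 to 4.23 in *svp-41*, 4.82 to 5.66 in *flc-3* and 4.09 to 4.49 in the double mutant. Of 24 anthocyanin and flavonoid genes, 23 had a mean apex difference below 0, although only 3 passed the limit. The list median was −0.52, against −0.001 for all genes. The choice used these same differences, so this is a description. In SD apices the list mean was 6.96 to 7.31 in the wild type, 6.39 to 6.53 in *svp-41* and 6.03 to 6.19 in the double mutant. In LDs the ranges were 5.59 to 6.51, 5.66 to 6.17 and 5.39 to 6.43, and they overlapped. In LDs AT1G03495 fell in the wild type by 2.2 ± 0.3 (adjusted p = 1.43e-05) and in *flc-3* by 2.07 ± 0.3 (adjusted p = 4.63e-05), and in LD apices its wild-type values of 3.67, 4.48 and 3.49 overlapped those of both lines without *SVP*. In *flc-3* plants 15 of the 24 genes were higher in apices than leaves in SDs and 6 in LDs, where 4.56% and 5.13% of all genes were. No gene of this list was called in the leaf mean over loss of *SVP*.

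Of 26 flowering genes on a list, only *FLC* and *SVP* were members. *SOC1* and *GA20OX2*, which are repressed by these factors in the apex, had mean apex differences of +1.52 and +1.71. In leaves *SOC1* was higher without *SVP*, by 2.19.

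**Figure D5:**
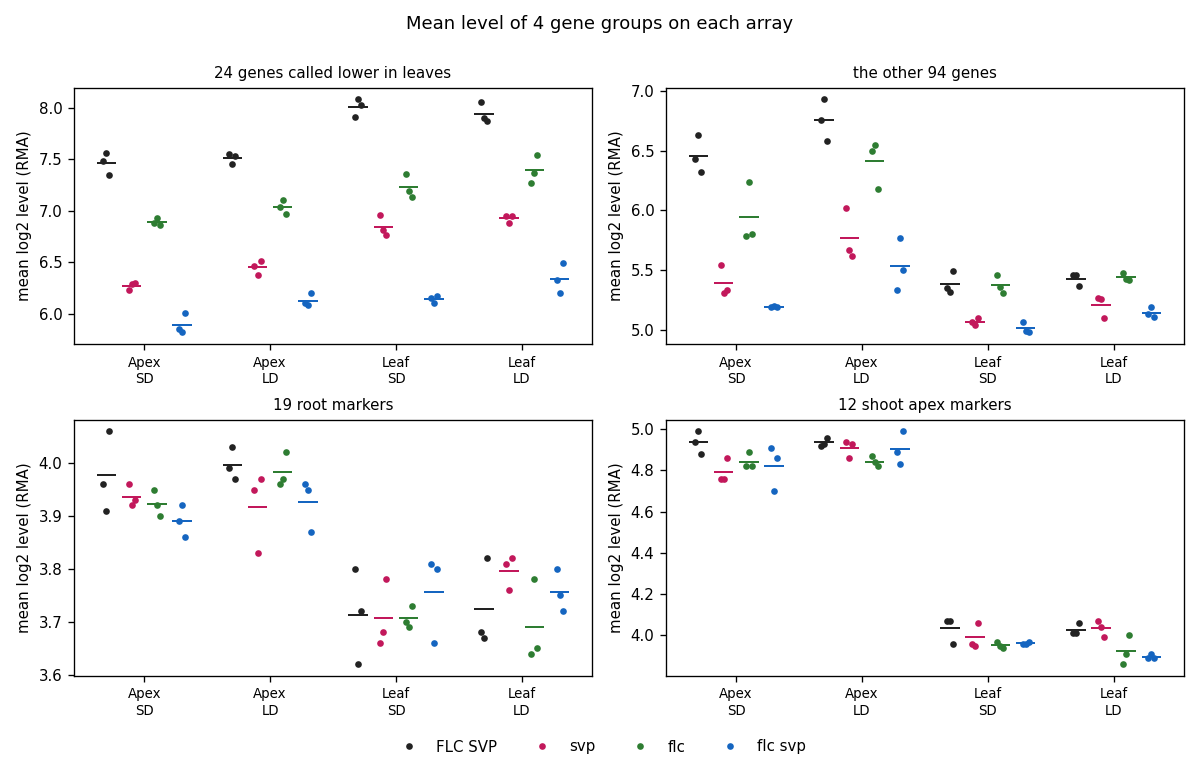
Mean log2 signal per array (points) for 4 sets of genes, namely the 24 genes called in leaves, the other 94, 19 root markers and 12 shoot apex markers, by group. The first set is lower without *SVP* in apices (5.82 to 6.51 against 6.86 to 7.56) and leaves (6.10 to 6.96 against 7.13 to 8.08). The root markers overlap between apex arrays with and without *SVP*, but in LD apices the double mutant (3.87 to 3.96) lies below the wild type (3.97 to 4.03).

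Over arrays, the 24 genes called in leaves averaged 6.86 to 7.56 in apices with *SVP* and 5.82 to 6.51 without, and the other 94 averaged 5.79 to 6.93 and 5.19 to 6.02. For the 24 genes the *flc-3* arrays stood between the wild type and the lines without *SVP*, in leaves as in apices. The ranges of the 94 overlapped and those of the 24 did not, but both sets had been chosen by these values or by the leaf calls.

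By locus number, chromosome 2 held 27 of the 118 genes (22.9%, against 16.5% of all genes) and chromosome 4 held 23 (19.5% against 15.4%). On chromosomes 1, 3 and 5 there were 24, 20 and 24. Of the 24 genes called in leaves, 9 lie on chromosome 2, and *SVP* itself is one of these 9. A total of 8 members lay within 600 measured genes of *SVP*. The share of all genes in this window is not given, so the count does not measure clustering. *PIN1AT*, 514 genes before *SVP*, was the farthest of the 8. It was followed by *PER15* (501 before), *RL4* (480 before) and AT2G18370 (475 before), then AT2G21100 (162 before) and *MEE3* (100 before), with AT2G23540 (109 after) and AT2G25510 (341 after) on the other side. Both lines without functional *SVP* carry the same *svp-41* allele.

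In 13 cases 2 members were within 5 genes of one another, which involved 24 members, and no matching count is given for all genes. These neighbours included *PELPK1*, *PELPK2* and AT5G09480, *AZI1* and *EARLI1*, *LSU1* and *LSU3*, the peroxidase genes AT2G38380 (*PER22*) and AT2G38390 (*PER23*), *GSTF6* and *GSTF7*, AT3G22600 and AT3G22620, and AT5G44550, AT5G44568 and AT5G44572. Where such neighbours are near-identical copies, the probes may not separate them and the values of each single gene are uncertain. Of the 118 genes, 113 are annotated as protein-coding, 1 as miRNA, 1 as ncRNA, 1 as lncRNA and 1 as a pseudogene, and AT1G12423 was not matched. On the lists of pathways followed here stood 33 of them, and 85 on none.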

How the data were processed

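Per the labels and the study's methods, RNA of 48 leaf and apex samples was hybridised to AGRONOMICS1 tiling arrays. The authors deposited log2 values per gene after robust multi-array averaging with the R function rma, which corrects the background, brings all arrays to one distribution and summarises the probes, so a global shift between samples is removed. Array medians ran from 4.27 to 4.38. Genome build and probe annotation are not given in the sources used here, and no coordinates are printed. Gene names came from a RefSeq table of TAIR10.1, which matched 30484 genes (98.3%) and 117 of the 118 members.

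One model with 16 group means, and with the replicate number as a random block (correlation 0.0336), was fitted to all 48 arrays in limma 3.58.1 under R 4.3.3, and 21 contrasts were tested. P-values were adjusted over all 31004 genes within each contrast by the Benjamini-Hochberg method, where the study used q-values. A call needed a change over 2-fold and an adjusted p under 0.01. The fit was tested on simulated data.

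The members and the lists of genes were chosen with earlier results of these data known. Genes named in the text are *SVP*, *FLC*, the 12 members with the lowest apex mean, members on the lists, the largest called changes in each contrast, genes at the limit of the rule and members nearest to *SVP*; others were picked after their values were seen. Alternatives were no block, separate fits for each tissue, only genes with a mean level above 4.5, no fold limit and each array left out. Another let limma's prior variance follow the signal level.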

Additional observations from a re-analysis of the deposited data

Results flagged for a closer look

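For 5 results the difference of a line without *SVP* from the wild type in the apex was not the same in LDs and SDs by a test of the difference itself. In *svp-41 flc-3* the loss of *FLC* is part of that difference. They were *RCI3* in *svp-41* (LD change minus SD change of 2.0 ± 0.29, SE, adjusted p = 7.36e-04) and in *svp-41 flc-3* (1.76 ± 0.29, adjusted p = 0.00477), the peroxidase gene AT2G18150 in *svp-41* (−2.42 ± 0.35, adjusted p = 7.36e-04) and in *svp-41 flc-3* (−2.53 ± 0.35, adjusted p = 5.83e-04), and *LSU1* in *svp-41 flc-3* (1.93 ± 0.31, adjusted p = 0.00477). In *svp-41* the *LSU1* value was 0.94 ± 0.31 (adjusted p = 1). AT2G18150 lay near the bottom of the scale in all SD apices and entered the set through its LD values. Its test therefore cannot tell whether the effect depends on day length. All come from limma's fit over all genes with 3 arrays per group, and both mutants share the wild-type arrays. When leaves and apices were fitted separately, none of the 5 passed the threshold. The calls of *RCI3* and *LSU1* in *svp-41 flc-3* were also lost when some single arrays were left out. The cause was not tested.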

How the results depend on the processing

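No direction reversed. Of 156 changes named or called for single genes, 112 kept their call under every alternative run and 44 lost it under at least 1. Without the replicate block the count of members that fell in LDs in *svp-41* apices went from 1 to 0, and no other count over members moved by more than 1.5 times. Within a tissue and day length, residuals of samples with the same number correlated by −0.0398 to 0.337, and those with different numbers by −0.283 to 0.206. The medians of the 4 sets were 0.0504 to 0.144 and −0.0935 to −0.0334. Samples with one number thus deviated together to a small degree, and the number was kept in the model as a random block. Without the fold limit the members called lower became 50 in the leaf mean over loss of *SVP*, 28 and 19 in *svp-41* leaves (SDs and LDs) and 35 in LD leaves of the double mutant, 5 were higher in *flc-3* SD leaves, 2 fell in LDs in *svp-41* apices, 2 fell in wild-type leaves and 3 rose in *flc-3* leaves. With a separate fit for each tissue, 0 fell in LDs in *svp-41* apices and wild-type leaves, 1 fell in *flc-3* and in double mutant leaves, 1 was higher in *flc-3* leaves in SDs and 1 in LDs, and each change that differed between day lengths in the apex (*svp-41* and double mutant, lower and higher) gave 0. Among genes with a mean level above 4.5, 30 members were higher in LD apices than leaves of *flc-3*, 2 were lower in the double mutant than in *svp-41* in LD apices, 0 fell in LDs in *flc-3* apices, 2 fell in wild-type leaves, 3 rose in *flc-3* leaves, 2 rose in double mutant leaves and 0 had a change lower in LDs than in SDs in either line without *SVP*, because the peroxidase gene AT2G18150 was not tested there. The causes of the other shifts were not tested. A limit of −1.0 gave 65 genes and one of −0.6 gave 237.

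Leaving out 1 array gave ranges of 0 to 1 members higher in double mutant SD leaves, 6 to 10 lower and 1 to 4 higher in *flc-3* SD leaves, 1 to 2 higher in *flc-3* LD leaves, and 1 to 2 lower in the double mutant than in *svp-41* in LD apices. For LDs against SDs in apices they were 2 to 5 lower in the wild type, 0 to 1 lower in *svp-41*, 10 to 24 higher in *flc-3* and 2 to 6 higher in the double mutant. In leaves they were 0 to 5 lower and 1 to 3 higher in the wild type, 1 to 2 and 1 to 3 in *svp-41*, 0 to 3 and 0 to 3 in *flc-3*, and 1 to 2 and 0 to 1 in the double mutant. The change that differed between day lengths was lower for 1 to 2 members in *svp-41* and higher for 0 to 2 in the double mutant. With 3 arrays per group, their number limits the precision, and for members near the bottom of the scale in leaves a lower level could not be detected.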
